A study of Rattus norvegicus with 9 samples.

Results

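The 9 genes Snap25, Stx1a, Vamp2, Syt7, Syt5, Rab3a, Rab27a, Unc13a and Rims2, which encode proteins of the machinery that releases insulin granules, were taken by name from a table of 20645 rat genes. All 9 were present and all 9 passed the filter of a mean of at least 1 FPKM (read fragments normalized for gene length and sequencing depth) over the 9 samples, which left 12958 genes for testing. RNA was sequenced from INS-1E cells, an insulin-secreting line derived from a rat insulinoma. All 3 groups were cultured for 24 h and had 3 replicates each. The BSA group received fatty acid-free bovine serum albumin, the PA group received 0.5 mM palmitic acid (PA), a saturated fatty acid, and the PA + C3G group received the same PA together with 50 µM cyanidin-3-O-glucoside (C3G), an anthocyanin of berries. The sample labels name the treatments without doses, which come from the study's methods. INS-1E is 1 tumor-derived line. The methods state biological triplicates for the study's experiments in general, and neither they nor the labels say that the 3 RNA samples of a group came from separate cultures, so p-values measure the spread between these samples, which may be technical.

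Insulin is stored in dense-core granules that fuse with the plasma membrane when glucose metabolism raises calcium in the beta cell. Fusion is driven by SNARE proteins: VAMP2 on the granule pairs with syntaxin 1A and SNAP25 on the plasma membrane. Before fusion, the GTPases Rab27a and Rab3a bring the granule to the membrane, Munc13 proteins and RIM proteins prime it there, and synaptotagmins couple fusion to calcium.

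Estimated counts totalled 45559993 to 66730721 in a sample, and the members had between 1345 and 30256 counts in a sample. All 10 beta cell marker genes looked up were expressed, and their summed FPKM was 49093 to 49804 in the BSA group, 22244 to 22751 in the PA group and 46661 to 52256 in the PA + C3G group. Ins1 was the largest part of this sum, at 24631 to 27703 FPKM with BSA and 29172 to 36222 with PA + C3G. The sum hides markers that stayed below BSA with PA + C3G. Ins2 was 12847 to 15321 with BSA and 6364 to 7700 with PA + C3G, and Slc2a2 was 490 to 527 and 168 to 178. Of these markers, 8 of 10 were lower with PA at an adjusted p under 0.05 (edgeR test described below), beside 25.2% of all tested genes. With C3G, 9 of 10 were higher than with PA alone, beside 11.1%. Compared with BSA, 3 of 10 were higher and 2 lower in the PA + C3G group, beside 19.0% and 17.9%. The part of these markers in the members' changes was not tested, and in bulk RNA fewer cells of a type and less RNA per cell cannot be told apart. The 3 exocrine markers in the table (Cpa1, Cel and Krt19) summed to at most 0.177 FPKM in any sample, the 3 leukocyte markers (Ptprc, Cd68 and Aif1) to at most 0.674, and Col1a1, the marker of stroma looked up there, was at most 0.0795. Among markers of other islet cells, Gcg, which encodes glucagon, summed with Ghrl to 9.55 to 31.9 FPKM in the BSA group, 2.68 to 7.01 in the PA group and 5.37 to 23.1 in the PA + C3G group. The 4 neuron markers summed to 9.72 to 12.6 FPKM, with no gap between groups.

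The 4 members that PA changed are Unc13a and Vamp2, which rose, and Stx1a and Rab27a, which fell. Their promoters are shown because these genes moved in opposite directions under the same treatment. Each is the 250 bases before the gene start, 5′ to 3′, from RefSeq on the GRCr8 assembly, and capitals mark GGGCGG (the GC box) or TGACG (the core of a cyclic AMP response element) on either strand.
Unc13a, chr16:18415787-18416036, minus strand: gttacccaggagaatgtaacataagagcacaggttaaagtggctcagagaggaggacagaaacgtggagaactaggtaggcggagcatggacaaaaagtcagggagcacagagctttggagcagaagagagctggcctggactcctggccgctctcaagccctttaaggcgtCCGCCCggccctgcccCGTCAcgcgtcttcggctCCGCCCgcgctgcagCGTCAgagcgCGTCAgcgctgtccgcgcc
Vamp2, chr10:54292539-54292788, plus strand: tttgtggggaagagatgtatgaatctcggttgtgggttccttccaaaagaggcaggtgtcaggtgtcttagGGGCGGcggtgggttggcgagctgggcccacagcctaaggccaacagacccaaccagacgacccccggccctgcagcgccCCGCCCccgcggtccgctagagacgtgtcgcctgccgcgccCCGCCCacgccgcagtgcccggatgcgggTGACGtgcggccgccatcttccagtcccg
Stx1a, chr12:27306472-27306721, minus strand: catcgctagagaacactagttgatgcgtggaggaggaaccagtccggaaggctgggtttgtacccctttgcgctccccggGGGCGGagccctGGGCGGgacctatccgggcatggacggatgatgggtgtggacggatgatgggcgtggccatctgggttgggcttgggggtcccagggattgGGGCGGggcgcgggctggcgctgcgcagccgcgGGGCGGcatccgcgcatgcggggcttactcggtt
Rab27a, chr8:82663123-82663372, plus strand: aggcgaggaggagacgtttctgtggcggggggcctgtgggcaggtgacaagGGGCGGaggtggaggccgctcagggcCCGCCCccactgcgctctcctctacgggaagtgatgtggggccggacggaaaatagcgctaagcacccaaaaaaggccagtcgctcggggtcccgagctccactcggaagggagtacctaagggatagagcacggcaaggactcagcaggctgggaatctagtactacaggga
RefSeq promoters were matched for 5 of the 9 members, the other being Rab3a. GGGCGG was in 5 of these 5 windows, against 61.3% of the windows of tested genes and 30.5% of all 33469 windows. TGACG was in 3 of 5, those of Unc13a, Vamp2 and Rab3a, against 29.6% and 18.2%. The full element TGACGTCA and the elements TGACGTGG and TGATGNAAN were also searched on both strands, and these letters were in 0 of 5 windows. Their shares were 3.09%, 0.811% and 1.72% of the windows of tested genes and 1.59%, 0.520% and 3.38% of all windows. At shares this low, 0 of 5 windows says little. TGACG is contained in TGACGTCA and TGACGTGG. The letters searched were chosen after the expression values were seen, and a match describes a window, not a bound site.

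In the BSA group, the FPKM level of the members spanned more than an order of magnitude. Syt7 was highest at 163 ± 3.98 FPKM (SD, n = 3), above 96.9% of tested genes, and Rims2 was lowest at 9.33 ± 0.463 FPKM, above 39.4%. Between them stood Syt5, Vamp2 and Rab3a at 95.4 ± 6.99, 89.9 ± 2.43 and 85.9 ± 6.08 FPKM, and then Snap25 and Stx1a at 51.1 ± 2.15 and 49.3 ± 2.18 FPKM. Unc13a followed at 17.6 ± 0.797 FPKM and Rab27a at 12.9 ± 0.833 FPKM. The samples of Syt5 and Vamp2, of Vamp2 and Rab3a, and of Snap25 and Stx1a overlapped, so these neighbors did not differ beyond their spread, and all other neighbors were separate. The genes of the SNAREs and calcium sensors were thus higher per length than those of the priming proteins and of Rab27a.

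**Figure D1:**
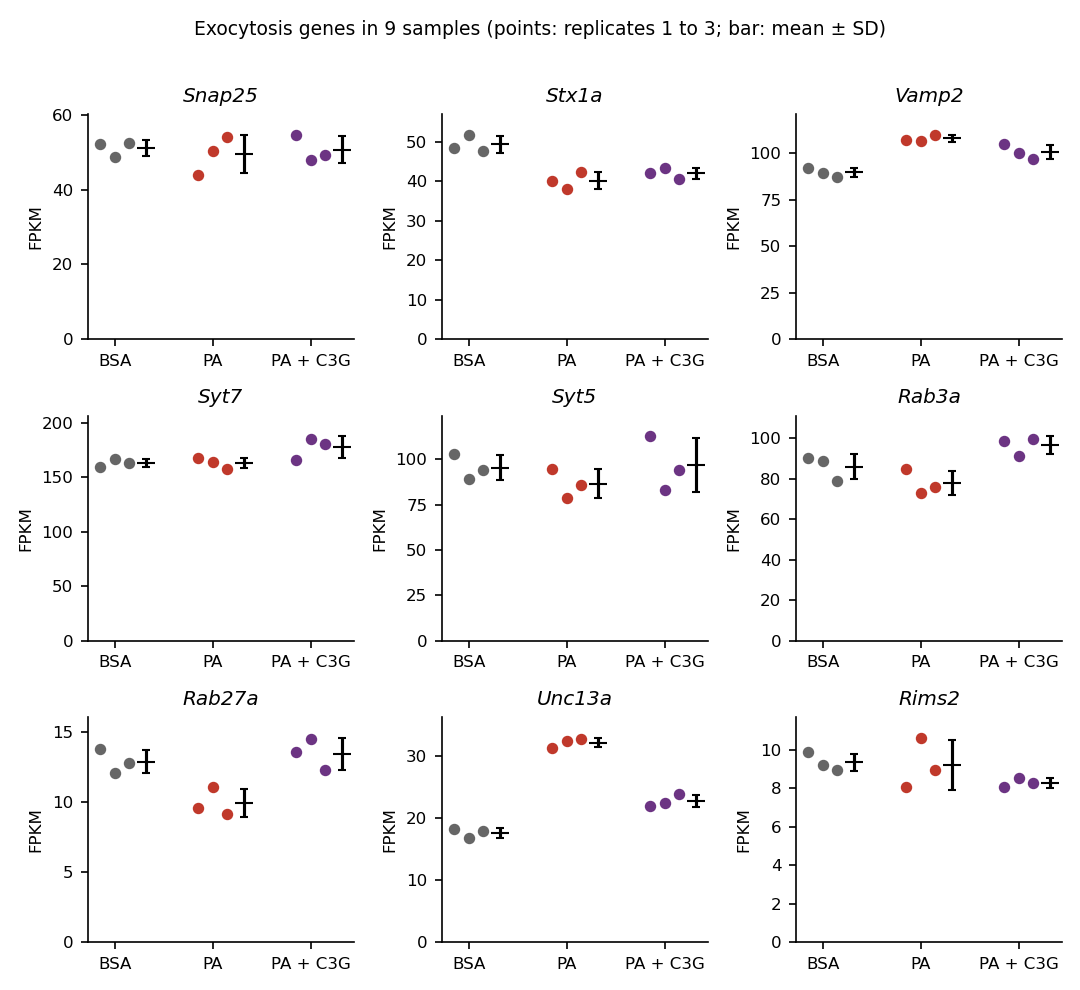
FPKM of each of the 9 members (vertical axis, starting at 0) in the BSA, PA and PA + C3G groups, with a point for each of replicates 1 to 3 and a bar for the mean ± SD. Unc13a stands at 31.2 to 32.7 FPKM with PA against 16.7 to 18.2 with BSA, and the PA points of Rab27a lie below those of both other groups.

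To see how lipotoxic exposure altered the release machinery, the PA group was compared with the BSA group by edgeR's quasi-likelihood test with Benjamini-Hochberg adjustment over all tested genes. PA raised Unc13a 1.85-fold and Vamp2 1.22-fold, and lowered Rab27a 1.27-fold and Stx1a 1.21-fold. These 4 of 9 members (44.4%) passed an adjusted p of 0.05, while 51.0% of all tested genes did (25.8% higher and 25.2% lower). The members therefore changed about as often as genes in general, with a median log2 fold change of −0.02 beside 0.00 for all tested genes. The samples of the same 4 members did not overlap between the groups, as for 59.9% of tested genes. No member had a fold above 2 in any of the 3 comparisons, and Unc13a with PA came nearest. Of all tested genes, 7.56% had such a fold with an unadjusted p under 0.05 for PA vs BSA, 1.13% for PA + C3G vs PA and 4.63% for PA + C3G vs BSA.

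The effect of C3G in the presence of PA was examined in the PA + C3G group against the PA group. Rab27a rose 1.39-fold, Rab3a 1.27-fold and Syt7 1.12-fold, and Unc13a fell 1.38-fold. These 4 of 9 members (44.4%) were called, beside 21.2% of all tested genes (11.1% higher and 10.2% lower). The Syt7 call was lost in 12 of the 19 alternatives tried. With a minimum mean of 5 FPKM, which all 9 members also pass, the share of tested genes called was 26.2%. Under that filter it was 57.0% for PA vs BSA and 42.3% for PA + C3G vs BSA. The median log2 fold change was 0.10 for the members and −0.00 for all tested genes, and 4 members, Vamp2, Rab3a, Rab27a and Unc13a, had samples that did not overlap, as did 39.5% of tested genes. With TPM scaling, which sets the FPKM sum of all samples equal, 2 members were higher and 2 lower, because Syt7 was no longer called and Vamp2 was called lower. Under that scaling the split of all called genes moved from 1436 higher and 1316 lower to 775 higher and 2525 lower.

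Compared with the BSA group, the PA + C3G group had 5 of 9 members (55.6%) called, beside 36.9% of all tested genes (19.0% higher and 17.9% lower). Unc13a, Vamp2, Syt7 and Rab3a were higher and Stx1a was lower. The samples of 5 members, Stx1a, Vamp2, Rab3a, Unc13a and Rims2, did not overlap, as for 50.3% of tested genes. The count of called members rested on single samples and on the scaling. It was 2 without PA + C3G replicate 3, where 30.9% of all tested genes were called. It was 3 with TPM scaling or with limma in place of edgeR. The 3 comparisons share samples in pairs, so the values that follow are set side by side and not correlated.

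**Figure D2:**
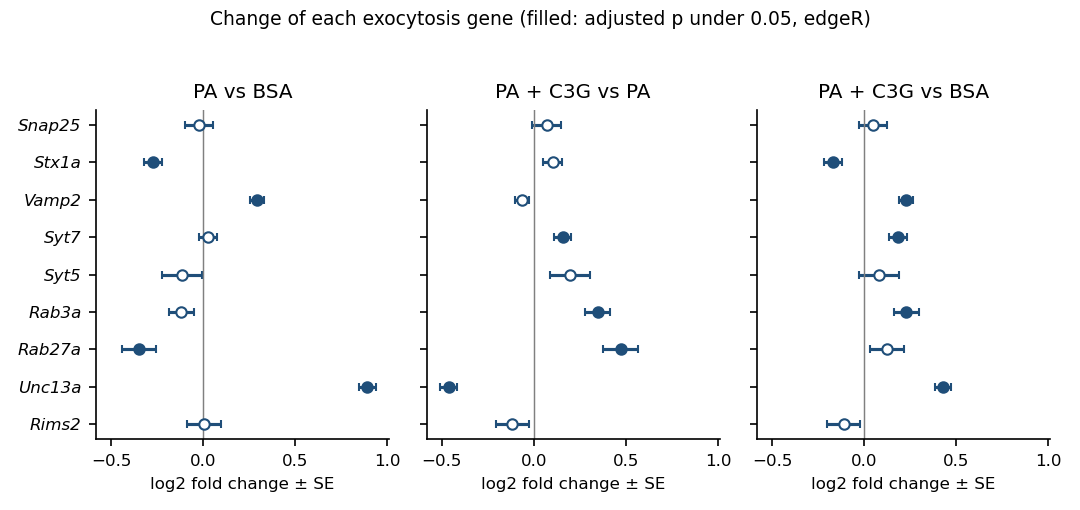
log2 fold change ± SE of each member (horizontal axis) in the 3 comparisons, with filled points for an adjusted p under 0.05 by edgeR. Unc13a lies at 0.89 for PA vs BSA and at −0.46 for PA + C3G vs PA, and Snap25, Syt5 and Rims2 are open in all 3 panels.

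Among the SNARE genes, Vamp2 (ENSRNOG00000006989, chromosome 10, 55675575 to 55679450, plus strand, in the coordinates of the authors' table, whose genome build is not given in the sources used here) encodes the granule SNARE. Its FPKM was 92.4, 89.6 and 87.6 in BSA replicates 1 to 3, 107, 107 and 110 in the PA group, and 105, 100.1 and 97.2 in the PA + C3G group. Every PA sample was above every BSA sample, and every PA + C3G sample lay between the groups. The log2 fold change was 0.29 ± 0.04 (SE, adjusted p = 0.000193) for PA vs BSA and 0.23 ± 0.04 (adjusted p = 0.00158) for PA + C3G vs BSA. For PA + C3G vs PA it was −0.06 ± 0.04 (adjusted p = 0.289), which was not called although the samples did not overlap. With TPM scaling the last value was −0.15 (adjusted p = 0.0205).

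Stx1a (ENSRNOG00000029165, chromosome 12, 24682041 to 24710019, minus strand) encodes syntaxin 1A, a plasma membrane partner of VAMP2. Its FPKM was 48.5, 51.8 and 47.7 with BSA, 40.0, 38.0 and 42.4 with PA, and 42.2, 43.3 and 40.6 with PA + C3G. The BSA samples were the 3 highest, and the samples of the other groups overlapped. Stx1a fell by 0.27 ± 0.05 on the log2 scale (SE, adjusted p = 0.00145) with PA. The change with C3G relative to PA was 0.10 ± 0.05 (edgeR, unadjusted p = 0.0705, adjusted p = 0.185), a fold between 1.003 and 1.15 (95% interval from the SE). This interval and those given below use the normal quantile and are narrower than the edgeR test allows, so leaving out 1 is not a call. In the PA + C3G group Stx1a was below the BSA group by −0.17 ± 0.05 (adjusted p = 0.0259). That call was lost without BSA replicate 2 (−0.14, adjusted p = 0.0628) or without PA + C3G replicate 3 (−0.15, adjusted p = 0.0786).

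Snap25 (ENSRNOG00000006037, chromosome 3, 129599353 to 129788400, plus strand) encodes the other plasma membrane SNARE of the pair. Its FPKM was 52.1, 48.6 and 52.6 with BSA, 43.9, 50.4 and 54.0 with PA, and 54.7, 47.8 and 49.3 with PA + C3G. The 3 groups overlapped throughout, and the lowest value was PA replicate 1. Its log2 fold change was −0.02 ± 0.08 for PA vs BSA, 0.07 ± 0.08 for PA + C3G vs PA and 0.05 ± 0.08 for PA + C3G vs BSA (adjusted p = 0.827, 0.577 and 0.679). The 95% interval of the fold with PA ran from 0.885 to 1.09.

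The levels of SNARE partners were then compared as FPKM ratios within each sample, since such a ratio does not depend on how samples are scaled to each other. The Vamp2 to Stx1a ratio was 1.91, 1.73 and 1.84 with BSA, 2.69, 2.80 and 2.59 with PA, and 2.49, 2.31 and 2.39 with PA + C3G. The groups did not overlap, with PA + C3G between the other two and nearer to PA. An exact permutation test over all arrangements of the 9 samples into 3 groups gave p = 0.00357, the smallest it can give, and an adjusted p of 0.0107 over the 6 ratios tested. The Vamp2 to Snap25 ratio was 1.76 ± 0.0897 with BSA, 2.20 ± 0.216 with PA and 2.00 ± 0.0882 with PA + C3G (SD, n = 3, exact permutation p = 0.00714, adjusted p = 0.0143). The Snap25 to Stx1a ratio was 1.04 ± 0.0873, 1.23 ± 0.118 and 1.20 ± 0.0962 (exact permutation p = 0.143, adjusted p = 0.214). A test over 3 groups does not say which group differs, and 3 samples against 3 cannot give an exact p below 0.1.

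**Figure D3:**
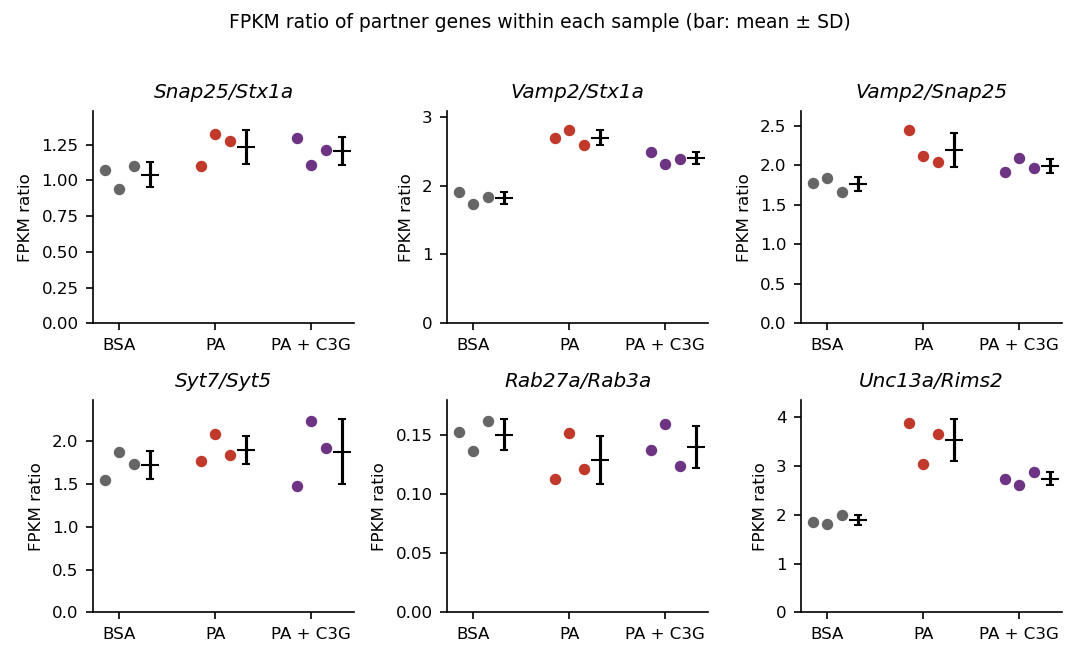
FPKM ratio of partner genes within each sample (vertical axis, starting at 0), with a point for each of replicates 1 to 3 of a group and a bar for the mean ± SD. The Vamp2/Stx1a ratio is 1.73 to 1.91 with BSA and 2.59 to 2.80 with PA, the Unc13a/Rims2 ratio is above 3 in each PA sample, and the Syt7/Syt5 and Rab27a/Rab3a ratios overlap between groups.

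Of the calcium sensors, Syt7 (ENSRNOG00000026432, chromosome 1, 226435979 to 226493377, plus strand) encodes synaptotagmin 7, a high-affinity sensor of slow release. Its FPKM was 159, 167 and 163 with BSA, 168, 164 and 158 with PA, and 166, 186 and 181 with PA + C3G. The BSA and PA samples overlapped, and PA + C3G replicates 2 and 3 were above all of them, while replicate 1 was not. The log2 fold change was 0.03 ± 0.05 (SE, adjusted p = 0.675) for PA vs BSA, 0.16 ± 0.05 (adjusted p = 0.0392) for PA + C3G vs PA and 0.18 ± 0.05 (adjusted p = 0.0123) for PA + C3G vs BSA. The rise over PA was small and not stable: it was 0.07 (adjusted p = 0.332) with TPM scaling, it was not called with limma (adjusted p = 0.103), without the filter (0.0676) or with the compared groups alone (0.0677), and it lost its call without BSA replicate 1 or 3, without any 1 of the PA replicates, and without PA + C3G replicate 2 or 3, with adjusted p from 0.0508 to 0.138. The rise over BSA was 0.12 (adjusted p = 0.0701) with TPM scaling, and it was not called with limma (adjusted p = 0.0702) or without BSA replicate 1 (0.16, adjusted p = 0.0577), PA + C3G replicate 2 (0.14, adjusted p = 0.0542) or PA + C3G replicate 3 (0.16, adjusted p = 0.0530).

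Syt5 (ENSRNOG00000018217, chromosome 1, 72860218 to 72867930, plus strand) encodes a synaptotagmin of dense-core granules that older literature also calls synaptotagmin IX. Its FPKM was 103, 89.1 and 94.2 with BSA, 94.8, 78.7 and 86.0 with PA, and 113, 83.2 and 94.2 with PA + C3G. In each group replicate 1 was highest and replicate 2 lowest, and the groups overlapped. On the log2 scale the change was −0.12 ± 0.11 for PA vs BSA, 0.20 ± 0.11 for PA + C3G vs PA and 0.08 ± 0.11 for PA + C3G vs BSA (adjusted p = 0.40, 0.233 and 0.601). The fold with C3G relative to PA had a 95% interval from 0.990 to 1.33. The Syt7 to Syt5 ratio was 1.72 ± 0.165, 1.897 ± 0.165 and 1.88 ± 0.380 in the 3 groups (SD, n = 3, exact permutation p = 0.693).

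Of the Rab GTPases, Rab27a (ENSRNOG00000052499, chromosome 8, 79722334 to 79776221, plus strand) tethers insulin granules near the membrane through its effectors. Its FPKM was 13.7, 12.1 and 12.8 with BSA, 9.56, 11.1 and 9.13 with PA, and 13.5, 14.5 and 12.2 with PA + C3G. The 3 PA samples were the lowest of the 9, and the BSA and PA + C3G samples overlapped. Rab27a fell by 0.35 ± 0.09 on the log2 scale (SE, adjusted p = 0.0114) with PA and rose by 0.47 ± 0.09 (adjusted p = 0.00747) with C3G relative to PA. Both calls held under every alternative tried, between −0.44 and −0.29 and between 0.38 and 0.56. Relative to BSA the PA + C3G value was 0.12 ± 0.09 (adjusted p = 0.336), a fold between 0.960 and 1.24.

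Rab3a (ENSRNOG00000019433, chromosome 16, 20435101 to 20439206, minus strand) encodes a GTPase of secretory vesicles that binds RIM proteins. Its FPKM was 90.1, 88.7 and 78.9 with BSA, 84.5, 73.0 and 75.6 with PA, and 98.5, 91.3 and 99.4 with PA + C3G. The BSA and PA samples overlapped, and all PA + C3G samples were above all others. The log2 fold change was −0.12 ± 0.07 (SE, adjusted p = 0.173) for PA vs BSA and 0.35 ± 0.07 (adjusted p = 0.00706) for PA + C3G vs PA, and the latter was called under every alternative tried. Without PA replicate 1 the PA value became −0.19 (adjusted p = 0.0454). For PA + C3G vs BSA it was 0.23 ± 0.07 (adjusted p = 0.0261), a call lost with TPM scaling (0.17, adjusted p = 0.0843), with limma (adjusted p = 0.0884), and without BSA replicate 3 (0.16, adjusted p = 0.112), PA + C3G replicate 1 (0.20, adjusted p = 0.0816) or PA + C3G replicate 3 (0.20, adjusted p = 0.0946). Rab3a overlaps Mpv17l2 on the opposite strand over 874 bases. The libraries marked strand, but whether the counting used it is not given in the sources used here. The Rab27a to Rab3a ratio was 0.150 ± 0.0130, 0.129 ± 0.0205 and 0.140 ± 0.0179 in the 3 groups (SD, n = 3, exact permutation p = 0.329, adjusted p = 0.394).

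Of the priming genes, Unc13a (ENSRNOG00000018452, chromosome 16, 20056765 to 20097287, minus strand) encodes Munc13-1, which opens syntaxin so that SNARE complexes can form. Its FPKM was 18.2, 16.7 and 18.0 with BSA, 31.2, 32.4 and 32.7 with PA, and 22.0, 22.4 and 23.8 with PA + C3G. The groups were fully separated, with PA highest, BSA lowest and PA + C3G between them. As log2 fold changes these were 0.89 ± 0.05 (SE, adjusted p = 3.23e-07) for PA vs BSA, −0.46 ± 0.05 (adjusted p = 0.000273) for PA + C3G vs PA and 0.43 ± 0.05 (adjusted p = 6.87e-05) for PA + C3G vs BSA. Each was called under every alternative tried, with ranges of 0.83 to 0.92, −0.55 to −0.44 and 0.35 to 0.44. With C3G, Unc13a thus stayed 1.34-fold above the BSA group.

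Rims2 (ENSRNOG00000004201, chromosome 7, 78092037 to 78594138, plus strand) encodes RIM2, a scaffold that links Rab3 to Munc13 and to calcium channels. Its FPKM was 9.85, 9.18 and 8.97 with BSA, 8.04, 10.6 and 8.93 with PA, and 8.04, 8.53 and 8.26 with PA + C3G. PA replicate 2 was the highest of the 9, and the 3 PA + C3G samples were below the 3 BSA samples. The log2 fold change was 0.00 ± 0.09 for PA vs BSA, −0.12 ± 0.09 for PA + C3G vs PA and −0.11 ± 0.09 for PA + C3G vs BSA (adjusted p = 0.975, 0.406 and 0.368). The ratio of Unc13a to its scaffold partner Rims2 was 1.85, 1.82 and 2.00 with BSA, 3.88, 3.05 and 3.66 with PA, and 2.74, 2.62 and 2.88 with PA + C3G. The groups did not overlap (exact permutation p = 0.00357, adjusted p = 0.0107 over the 6 ratios).

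To set the members beside related genes, 117 further genes were listed by role. The 117 include 24 SNAREs of membrane steps other than granule release. Of the 117 genes, 113 were in the table and 98 were tested. PA changed 54 of them (55.1%, beside 51.0% of all tested genes), with 33 higher and 21 lower. C3G relative to PA changed 25 (25.5%, beside 21.2%), with 13 higher and 12 lower, and this balance depended on the scaling, since it was 8 higher and 24 lower with TPM scaling. The PA + C3G group differed from the BSA group in 41 (41.8%, beside 36.9%), with 30 higher and 11 lower (19 and 17 with TPM scaling). Part of these totals is the 24 SNAREs of other membrane steps, of which PA raised 12 and lowered 3 (62.5% called, beside 51.0%). In the PA + C3G group 13 of the 24 were above BSA and 0 below (9 and 1 with TPM scaling), beside 19.0% and 17.9% of all tested genes. The counts of each list below are to be read against the same background, which was 25.8% higher and 25.2% lower of all tested genes with PA, and 11.1% higher and 10.2% lower with C3G relative to PA. The lists were chosen with earlier results of these data known.

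**Figure D4:**
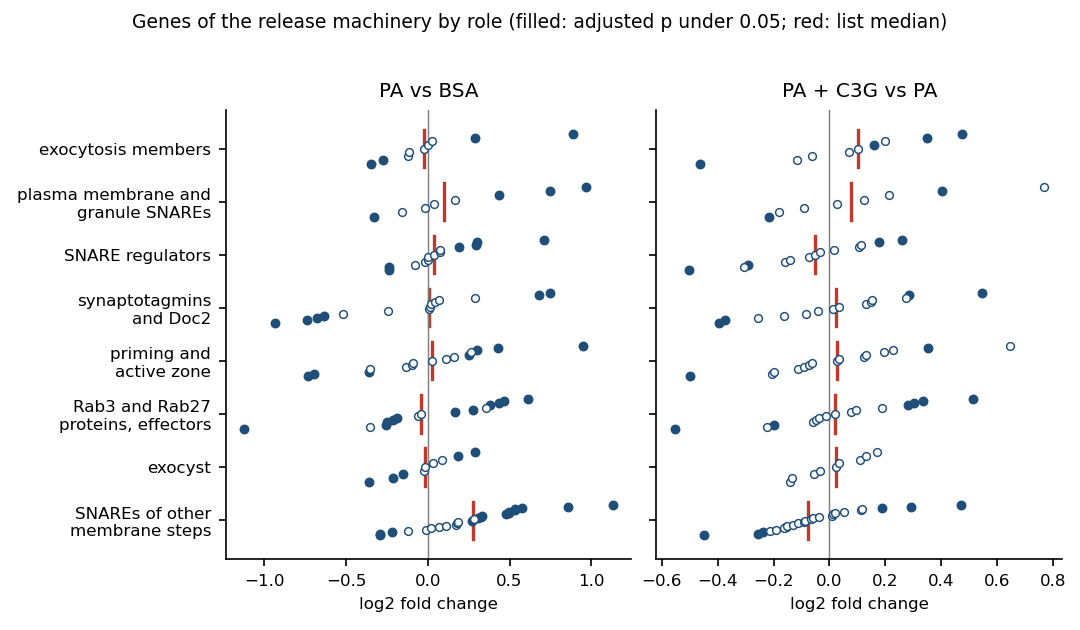
log2 fold change (horizontal axis) of each tested gene of the 9 members and of 7 lists by role, for PA vs BSA on the left and PA + C3G vs PA on the right, with filled points for an adjusted p under 0.05 and a red line at the median of each list. The median of the SNAREs of other membrane steps is 0.28 with PA, and that of the members is −0.02.

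Around Stx1a and Vamp2, the other plasma membrane and granule SNAREs rose in 3 and fell in 1 of 8 tested genes with PA (50.0% called, beside 51.0%). Stx3, a syntaxin of granule membranes and of compound fusion, rose from 11.2 ± 0.525 to 18.5 ± 1.10 FPKM (log2 fold change 0.75 ± 0.06, adjusted p = 4.04e-06), and Stx4, a further plasma membrane syntaxin, from 37.1 ± 3.19 to 49.3 ± 1.35 FPKM (0.44 ± 0.06, adjusted p = 0.000224). These syntaxins thus moved opposite to Stx1a. With C3G relative to PA, 1 gene of this list was higher and 1 lower (1 and 2 with TPM scaling): Vamp8 was higher by 0.40 ± 0.08 (adjusted p = 0.00887) and Stx3 lower by −0.22 ± 0.06 (adjusted p = 0.0235), the latter not without PA replicate 1 or PA + C3G replicate 2 or 3 (adjusted p from 0.0676 to 0.0746). Among all 13 SNARE regulators tested, PA raised 4 and lowered 2 (46.2% called, beside 51.0%), and C3G raised 2 and lowered 2 relative to PA (1 and 5 with TPM scaling). The 2 that PA lowered were Nsf and Stxbp2, both by −0.24 (adjusted p = 0.000855 and 0.00260). Cplx1, which encodes complexin 1, a protein that binds the SNARE complex, fell by 0.50 ± 0.10 with C3G relative to PA (adjusted p = 0.00726). With PA it rose by 0.29 ± 0.10 (adjusted p = 0.0320), a call lost without BSA replicate 1 or 2 or PA replicate 1 or 3 (adjusted p from 0.0778 to 0.123).

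Beside Syt7 and Syt5, the other synaptotagmins and Doc2 proteins included 2 of 14 tested genes that rose and 4 that fell with PA (42.9% called, beside 51.0%). Syt13 was 78.2 ± 2.38 FPKM with BSA, 46.1 ± 1.52 with PA and 65.6 ± 1.15 with PA + C3G (SD, n = 3). Syt4 had the opposite pattern, at 38.3 ± 3.23, 63.2 ± 3.16 and 46.9 ± 3.79 FPKM. The log2 fold change was −0.74 ± 0.04 (adjusted p = 4.06e-07) for Syt13 and 0.75 ± 0.07 (adjusted p = 2.42e-05) for Syt4 with PA, and 0.55 ± 0.04 (adjusted p = 6.18e-05) and −0.40 ± 0.07 (adjusted p = 0.00567) with C3G relative to PA. With C3G relative to PA, 2 genes of the list were higher and 2 lower (1 and 3 with TPM scaling). For the members Syt7 and Syt5 the PA values were 0.03 and −0.12, and neither was called.

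Beside Unc13a and Rims2, PA raised 4 and lowered 3 of 15 tested priming and active zone genes (46.7% called, beside 51.0%). Unc13b, which encodes Munc13-2, was 7.68 ± 0.401 FPKM with BSA, 14.6 ± 0.373 with PA and 10.1 ± 0.312 with PA + C3G (SD, n = 3). Its log2 fold changes of 0.95 ± 0.05 with PA (adjusted p = 3.15e-07) and −0.50 ± 0.05 with C3G relative to PA (adjusted p = 0.000258) stand beside 0.89 and −0.46 for Unc13a. Of the 98 genes, Unc13b had the profile nearest to that of Unc13a over the 9 samples, with a root mean square distance of 0.0668 on the log2(FPKM + 1) scale. Rims3, a short relative of Rims2, and Erc1, a scaffold that binds RIM, were lower with PA by −0.69 ± 0.09 (adjusted p = 0.000121) and −0.73 ± 0.10 (adjusted p = 0.000172), while Rims2 was at 0.00. With C3G relative to PA, 1 gene of the list was higher and 1 lower (with TPM scaling 4 were called, each lower). The higher gene was Rims3 (0.35 ± 0.09, adjusted p = 0.0194), not called with TPM scaling, without PA replicate 1 or 3, or without PA + C3G replicate 2 or 3 (adjusted p from 0.0545 to 0.0792).

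Beside Rab27a and Rab3a, PA raised 6 and lowered 5 of 15 tested Rab3 and Rab27 proteins, effectors and regulators (73.3% called, beside 51.0%). C3G raised 4 and lowered 2 relative to PA (40.0% called, beside 21.2%), also with TPM scaling. Sytl4 encodes granuphilin, the Rab27a effector that docks insulin granules through syntaxin 1A. It was 317, 325 and 341 FPKM with BSA, 135, 169 and 140 with PA, and 185, 221 and 211 with PA + C3G. The groups did not overlap, with PA + C3G between the others, and the log2 fold change was −1.12 ± 0.09 (adjusted p = 6.32e-06) with PA and 0.51 ± 0.09 (adjusted p = 0.00435) with C3G relative to PA. Rab3c and Rab3d, close relatives of Rab3a, fell with PA by 0.25 and 0.26 (adjusted p = 0.00281 and 0.00862) and rose with C3G relative to PA by 0.28 and 0.34 (adjusted p = 0.00518 and 0.00680). Rab3b, a further relative, instead rose with PA by 0.46 ± 0.15 (adjusted p = 0.0271). That call was lost without BSA replicate 1 or 3 or PA replicate 2 (adjusted p from 0.0833 to 0.0993). For Rab3b the change was 0.19 ± 0.15 (adjusted p = 0.427) for PA + C3G vs PA and 0.65 ± 0.15 (adjusted p = 0.00781) for PA + C3G vs BSA. Rph3al, which encodes Noc2, an effector of Rab3 and Rab27, was −0.22 ± 0.04 (adjusted p = 0.00175) with PA and 0.30 ± 0.04 (adjusted p = 0.00127) with C3G relative to PA. Myo5a, the motor that carries granules along actin, went the other way, at 0.43 ± 0.07 (adjusted p = 0.000390) and −0.55 ± 0.07 (adjusted p = 0.000611), as did Rab3gap2, a regulator of Rab3, at 0.61 ± 0.04 (adjusted p = 1.73e-06) and −0.20 ± 0.04 (adjusted p = 0.00852).

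**Figure D5:**
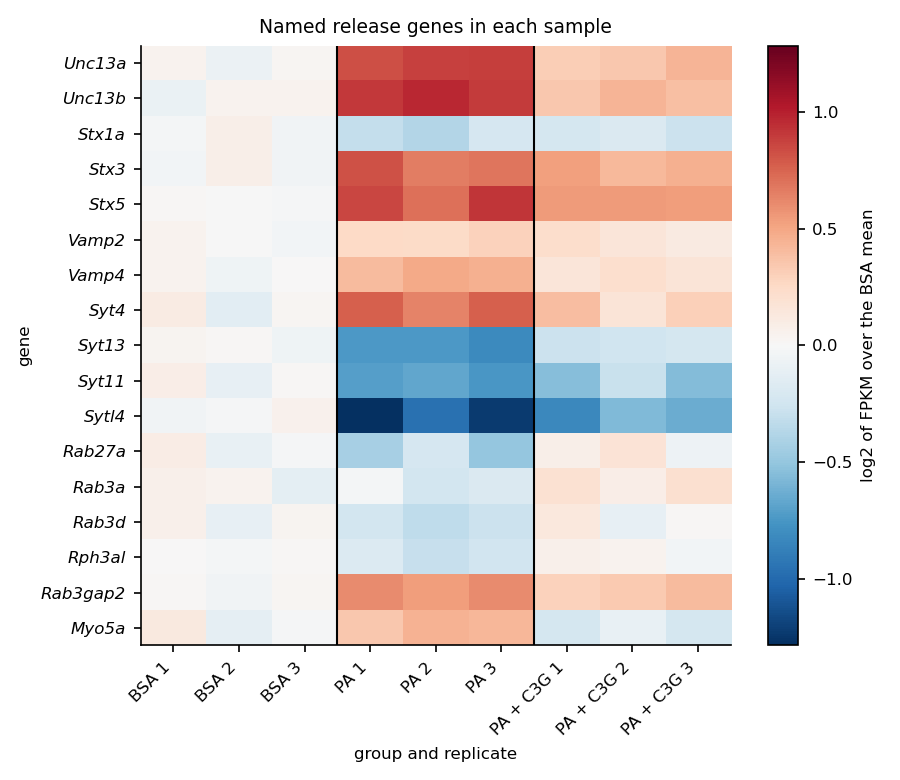
log2 of FPKM over the BSA mean (color) for members and partner genes (rows) in each of the 9 samples (columns, by group and replicate). Unc13a and Unc13b are red in all 3 PA samples and paler with PA + C3G, and Sytl4 and Syt13 are blue in all 3 PA samples and paler with PA + C3G.

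The remaining nearest profiles over the 9 samples, with their root mean square distance, were Snapin for Snap25 (0.0845), Exoc3 for Stx1a (0.0737), Gosr1 for Vamp2 (0.0633), Syt3 for Syt7 (0.0513), Rab3d for Syt5 (0.0938), Rph3al for Rab3a (0.0965), Rab3c for Rab27a (0.106) and Ppfia1 for Rims2 (0.0814). A short distance also arises between genes that move little. The range over the 9 samples on the same scale was 0.230 for Syt7, 0.310 for Snap25, 0.328 for Vamp2 and 0.361 for Rims2, against 0.928 for Unc13a.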

How the data were processed

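Polyadenylated RNA of 9 INS-1E samples was sequenced in paired-end mode from strand-specific libraries. The submitters' processing notes name cutadapt 1.9, HISAT2 2.0.4 and StringTie 1.3.4d, with DESeq2 and edgeR. The authors deposited estimated counts per gene, not normalized, and the authors also deposited FPKM, scaled to gene length and library size. No column held their own comparisons. Low counts pile up at multiples of 4, so dividing by 4 was an alternative. The tests were planned for counts, and the estimated counts, whole numbers as deposited, were used as such.

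Counts were analysed with edgeR 4.0.16 (R 4.3.3; TMM factors 0.973 to 1.022; quasi-likelihood test, all 9 samples, a minimum mean of 1 FPKM, Benjamini-Hochberg adjustment, threshold 0.05). Fold changes are on this scale, while levels are FPKM. Tried instead were DESeq2 1.42.0, size factors by median ratio, TPM scaling (equal FPKM sums), no filter, a minimum of 5, the compared groups alone, a replicate block, limma 3.58.1 on log2(FPKM + pseudocount) with 1 and 0.1, and leaving out each sample. The procedure was tested on simulated data. Same-numbered samples of different groups were uncorrelated in their deviations from group means (r from −0.0943 to 0.0700), so numbers were not taken as pairs. Genes named are the 9 members, up to 3 per list and comparison with the smallest p among called genes whose samples do not overlap, and the nearest profile of each member. Not all of these are described, and a gene that this rule names is not reported here. The members and lists were chosen with earlier results of these data known. Reads without molecular identifiers are not independent molecules.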

Additional observations from a re-analysis of the deposited data

How the results depend on the processing

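Of the 27 log2 fold changes of members, 20 kept their side of the threshold under all 19 alternatives (10 settings and 9 samples left out), and 13 of these also kept their sign in all of them. The sign changed in values of Snap25, Syt7, Syt5 and Rims2 that were not called, and no called value reversed. The members called for PA vs BSA numbered 4 in every setting and 4 to 5 with a sample left out, and for PA + C3G vs PA 3 to 5 and 3 to 4. For PA + C3G vs BSA they numbered 5, but 3 with TPM scaling, 3 with limma at either pseudocount, and 2 to 5 with a sample left out, with 2 without PA + C3G replicate 3. The genes called for PA + C3G vs PA in the KEGG list SNARE interactions in vesicular transport numbered 9, and 5 to 8 with a sample left out (5 without PA + C3G replicate 3). In the list Synaptic vesicle cycle they numbered 15, and 9 to 15 (9 without PA replicate 1 or PA + C3G replicate 3). The share of all tested genes called for PA + C3G vs PA fell as well. It was 21.2% with all samples, 15.1% without PA + C3G replicate 3 and 16.5% without PA replicate 1. With a replicate block, the smallest p that the exact permutation test of a ratio could give was 0.0278. Vamp2/Stx1a, Vamp2/Snap25 and Unc13a/Rims2 each had this p. Adjusted over the 6 ratios it was 0.0556, so these ratios no longer passed the threshold. Their log2 differences for PA vs BSA and PA + C3G vs PA were 0.56 and −0.17 for Vamp2/Stx1a, 0.32 and −0.14 for Vamp2/Snap25, and 0.90 and −0.36 for Unc13a/Rims2. The block also brought Syt5 to a call for PA + C3G vs PA (0.19, adjusted p = 0.0226), and it changed no other call of a member. All genes called for PA + C3G vs PA numbered 2752, and 1718 without PA replicate 3. All genes called for PA + C3G vs BSA split into 2462 higher and 2321 lower, or 1891 and 3038 with TPM scaling. With limma at a pseudocount of 1 the splits were 1850 and 3091, and 1065 and 1636 for PA + C3G vs PA. Dividing the counts by 4 changed no call of a member. The cause of the dependence on scaling was not tested.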

Other observations

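Besides the lists by role, the KEGG annotation of the table gave lists that are wider than insulin release, and the members were left out of them. The KEGG lists share genes with the lists by role, such as Stx5, Gosr2 and Vamp4, so their counts are not separate observations. Of 29 tested genes of SNARE interactions in vesicular transport, PA raised 16 and lowered 4, beside 25.8% of all tested genes that were higher and 25.2% that were lower. Their median log2 fold change was 0.31. In the PA + C3G group 19 were called, each above BSA (13 above and 1 below with TPM scaling), beside 19.0% of all tested genes higher and 17.9% lower. Relative to PA, 4 were higher and 5 lower (2 and 9 with TPM scaling), beside 11.1% and 10.2%. These genes include the SNAREs of transport between the endoplasmic reticulum, the Golgi and endosomes. Stx5, the syntaxin of traffic into the Golgi, was 36.7 ± 0.345 FPKM with BSA, 65.4 ± 4.76 with PA and 53.4 ± 0.171 with PA + C3G (SD, n = 3), and its log2 fold change was 0.86 ± 0.05 with PA (SE, adjusted p = 6.14e-07) and −0.25 ± 0.05 with C3G relative to PA (adjusted p = 0.00608). Gosr2, its Golgi partner, rose by 0.53 ± 0.05 with PA (adjusted p = 8.42e-06), and Vamp4, a SNARE of the trans-Golgi network, by 0.48 ± 0.04 (adjusted p = 1.27e-05). Of 44 tested genes of the synaptic vesicle cycle, PA raised 24 and lowered 6 (68.2% called, beside 51.0% of all tested genes). Of 56 tested genes of insulin secretion, 16 rose and 18 fell with PA (60.7% called, beside 51.0%). With C3G relative to PA, 14 of the 56 rose and 7 fell (11 and 7 with TPM scaling), beside 11.1% higher and 10.2% lower of all tested genes.

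The exocyst, the complex that tethers vesicles to the plasma membrane, had 2 genes higher and 3 lower of 9 tested with PA (55.6% called, beside 51.0% of all tested genes). Exoc5 and Exoc4 fell by 0.36 and 0.22 on the log2 scale (adjusted p = 0.000387 and 0.00388), and Exoc1 rose by 0.18 (adjusted p = 0.0108). With C3G relative to PA 0 of 9 exocyst genes were called by edgeR in the main setting (21.2% of all tested genes were), and 2 had an unadjusted p under 0.05. Exoc5 was called higher by DESeq2 (adjusted p = 0.0424), with the compared groups alone (0.0495), with a replicate block (0.0140) and without BSA replicate 2 (0.0304). With TPM scaling Exoc1 was instead called lower (−0.14, adjusted p = 0.0433).

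Doc2b, which encodes a calcium sensor of the double C2 family, was chosen after its values were seen, since its mean was under 1 FPKM and it was not tested with the filter. Its FPKM was 1.94, 1.01 and 1.57 with BSA, 0.346, 0.130 and 0.200 with PA, and 0.849, 0.405 and 0.767 with PA + C3G. The groups did not overlap. The estimated counts of Doc2b were low, at 164, 71 and 127 with BSA, 30, 11 and 14 with PA, and 73, 32 and 45 with PA + C3G. Without the filter, edgeR gave a log2 fold change of −2.68 ± 0.45 (SE, adjusted p = 0.000825) for PA vs BSA, 1.58 ± 0.44 (adjusted p = 0.0435) for PA + C3G vs PA and −1.10 ± 0.42 (adjusted p = 0.0953) for PA + C3G vs BSA. In that fit 32.3%, 11.8% and 21.8% of all genes were called in these comparisons.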
